A study of Mus musculus with 12 samples.

Results

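Kit single-positive epithelial cells (Kit+ K5-) were compared with K5 single-positive epithelial cells (Kit- K5+) of the embryonic mouse submandibular gland, across all genes. The comparison took the 3 libraries labelled Kit+ K5- and the 3 labelled Kit- K5+, 6 of the 12 libraries of the series, and every gene of the deposited table was a member. All 6 came from glands at embryonic day 15 of a K5-Venus transgenic strain, labelled Tg(KRT5-Venus)1Sgkd, in which the fluorescent protein Venus is made under keratin 5 regulatory sequence. Both populations had been sorted as positive for E-cadherin, the adhesion protein of epithelial cells. Kit+ K5- cells were stained by an antibody to Kit and lacked Venus, whereas Kit- K5+ cells carried Venus and were not stained for Kit. K5 in these names is thus the fluorescence of a transgene and not keratin 5 protein, and libraries without the transgene were not analysed here. The other 6 libraries, of Kit+ K5+ and Kit- K5- cells, entered the filter on low counts, the scaling and the estimate of the spread. The sources used here do not say whether replicates came from separate embryos or litters, so p-values measure the spread between these libraries, which may be technical.

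At this stage the gland is a tree of epithelial buds and ducts within a mesenchyme that supplies growth factors. Kit is a receptor tyrosine kinase whose ligand is stem cell factor, the product of Kitl, and in this tissue it is known as a marker of progenitors in the end buds, which later form the secretory acini. Keratins 5 and 14 are the filament proteins of basal epithelial cells, which lie on the basement membrane of the ducts and, later, around the acini as contractile myoepithelial cells. Mast cells also carry Kit on their surface, as do melanocyte precursors.

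The Kit+ K5- libraries held 7629951 to 9035595 counts and the Kit- K5+ libraries 5589037 to 8478609. Levels below are read counts relative to library size (CPM) after TMM scaling, given for replicates 1, 2 and 3 in that order. Differences are log2 values of Kit+ K5- over Kit- K5+ with their standard error (SE). A gene was called when its adjusted p was under 0.05 in edgeR's quasi-likelihood test with Benjamini-Hochberg adjustment over all genes tested. The mitochondrial share of counts was 17.2% ± 8.81 (SD) in the 3 Kit+ K5- libraries, against 27.97% ± 3.32 in the 3 Kit- K5+ libraries. With mitochondrial transcripts left out 455 genes were called, 245 higher and 210 lower. Of these, 239 and 203 were also among the 252 higher and 203 lower calls of the fit that kept those transcripts. The labels do not state whether counting used strand, so reads of named genes that an annotated gene overlaps may include those of that gene. Among them were Krt5, Myb, Ccnd1, Dst, Lama3, Esrp2, Fst, Tgfb3, H19, Gas1, Col5a1, Tfcp2l1, Mcm7, Dclk1 and Coro1a. In bulk RNA, fewer cells of a type and less RNA per cell cannot be told apart.

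Kit itself followed the sort. Kit (chromosome 5, 75574916 to 75656722 on GRCm38) had 445, 300 and 283 CPM in Kit+ K5- libraries, against 15.3, 26.4 and 25.6 CPM in Kit- K5+ libraries. Every Kit+ K5- library lay far above every Kit- K5+ library, a log2 difference of 3.94 ± 0.31 (SE) with the smallest adjusted p of all genes, 5.10e-05. Krt5, whose regulatory sequence drives the reporter, had 0.317, 4.63 and 2.33 CPM in Kit+ K5- libraries, against 22.9, 13.5 and 20.3 CPM in Kit- K5+ libraries. The groups did not overlap for Krt5, but the difference of -2.95 ± 0.89 did not pass (adjusted p = 0.0943). Krt14, the partner of keratin 5 in basal filaments, stood at 6.97, 89.1 and 46.8 CPM in Kit+ K5- and 133, 83.9 and 54.3 CPM in Kit- K5+ libraries. These values overlapped, and replicate 1 of Kit+ K5- was the low one (log2 difference -0.93 ± 0.80, adjusted p = 0.586). The Kit+ K5- cells as sorted were thus not free of Krt14 transcripts in replicates 2 and 3. Trp63, the transcription factor of basal epithelium, overlapped in the same way, at 31.0, 282 and 346 CPM in Kit+ K5- libraries and 460, 488 and 300 CPM in Kit- K5+ libraries. Cdh1, which encodes E-cadherin, had 909, 702 and 503 CPM in Kit+ K5- and 657, 575 and 530 CPM in Kit- K5+ libraries, a difference within the spread (0.26 ± 0.26, adjusted p = 0.637).

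**Figure D1:**
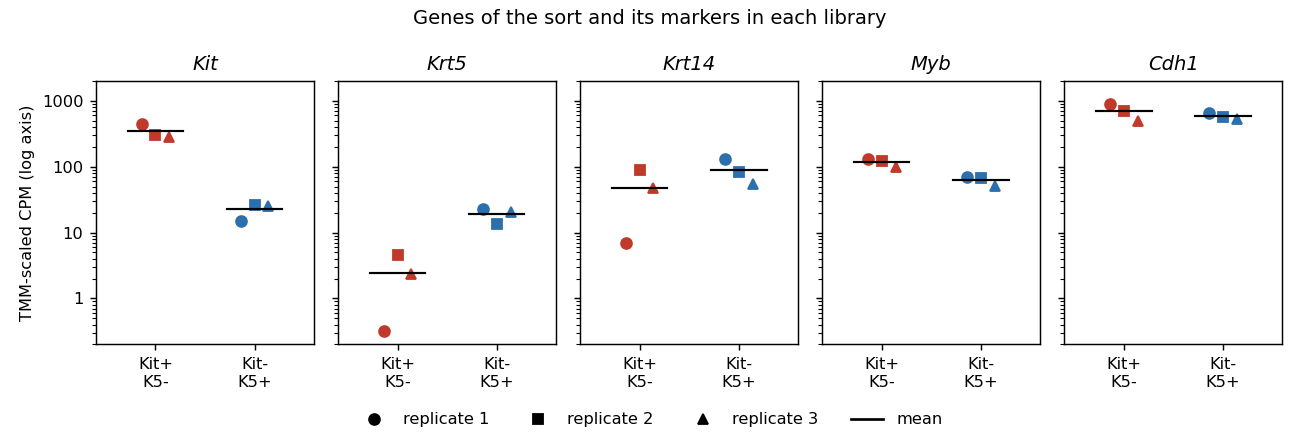
CPM after TMM scaling on a log axis for genes of the sort and its markers, with Kit+ K5- libraries to the left of Kit- K5+ libraries in each panel; points are single libraries, shapes are replicates and bars are means. Kit separates the groups most widely, with 283 CPM or more in each Kit+ K5- library and 26.4 CPM or less in each Kit- K5+ library, whereas Krt14 and Cdh1 overlap.

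Of 17030 genes tested, 252 were called higher in Kit+ K5- cells (1.48%) and 203 lower (1.19%), 2.67% in both directions together, and 3161 had an unadjusted p under 0.05. The difference was at least 2-fold for 191 of the higher and 174 of the lower genes. The single libraries did not overlap for any of the 252 higher genes and for 200 of the 203 lower genes, while over all genes tested 11.2% lay higher without overlap and 9.28% lower. The median log2 difference over all genes tested was -0.03. The counts of calls depended on single libraries. They fell to 40 when Kit+ K5- replicate 2 was left out and to 52 when Kit- K5+ replicate 1 was. Leaving out Kit+ K5- replicate 1 gave 208 calls, and leaving out Kit- K5+ replicates 2 or 3 gave 134 or 258. Without Kit+ K5- replicate 3 the number was higher, at 566. Scaling to 24 genes of general epithelium shifted the median of all genes to -0.37 and gave 19 higher and 117 lower calls, so 14% of calls were higher in place of 55.4%.

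**Figure D2:**
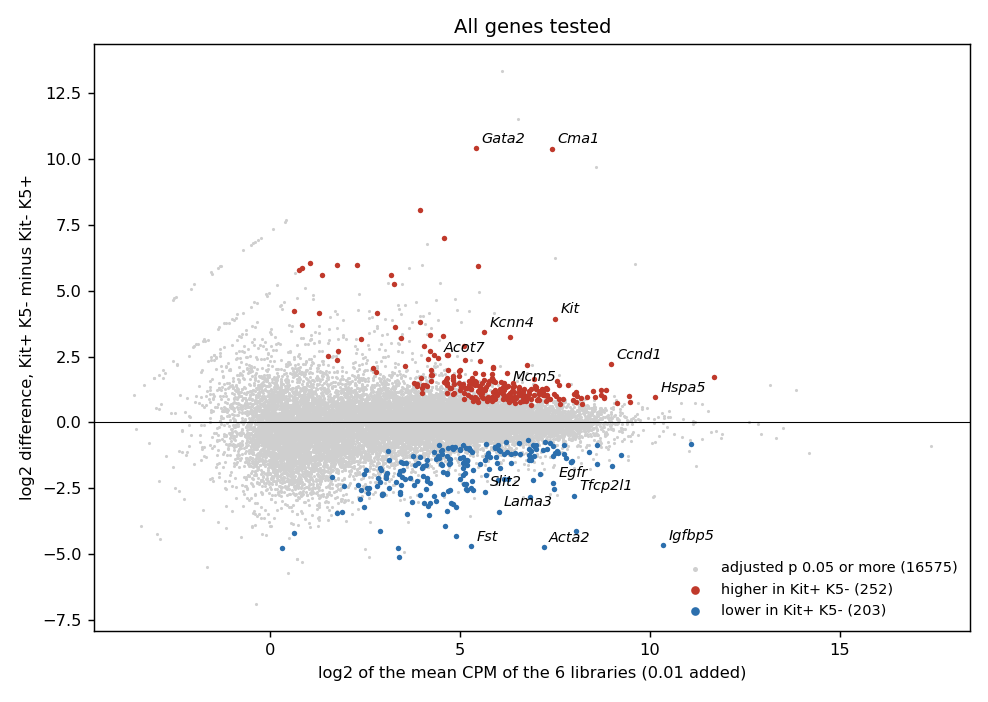
Log2 difference, Kit+ K5- minus Kit- K5+, against the log2 of the mean CPM of the 6 libraries for the 17030 genes tested; coloured points are the 252 genes called higher and the 203 called lower. Kit, at 3.94, and Igfbp5, at -4.66, lie far from 0 among well-detected genes.

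The end bud list held the genes that mark or drive the growing tips of the gland. Of its 20 measured genes, 3 were called higher and 0 lower, and 12 had positive and 8 negative differences. Without overlap 5 were higher and 3 lower, while over all genes tested 11.2% lay higher and 9.28% lower. The list median was 0.43, or 0.14 without Kit+ K5- replicate 1 and 0.11 under scaling to epithelial genes. Besides Kit, on which the cells were sorted, the called genes were Ccnd1 and Cd44. Ccnd1, the cyclin that carries cells from growth into division, had 924, 885 and 666 CPM in Kit+ K5- libraries, against 89.9, 270 and 176 CPM in Kit- K5+ libraries (2.21 ± 0.37, adjusted p = 0.0149). Cd44, a hyaluronan receptor, had 138, 83.0 and 65.4 CPM in Kit+ K5- libraries, against 29.9, 16.2 and 20.7 CPM in Kit- K5+ libraries (2.10 ± 0.47, adjusted p = 0.0364). Neither gene overlapped between the groups. Myb, a transcription factor of progenitors, had 130, 123 and 99.9 CPM in Kit+ K5- libraries, 310, 163 and 153 CPM in Kit+ K5+ libraries and 68.8, 67.9 and 51.3 CPM in Kit- K5+ libraries. All 3 Kit+ K5- libraries were above the 3 Kit- K5+ libraries for Myb, without passing the test (0.91 ± 0.25, adjusted p = 0.0741). Spdef, a transcription factor of secretory epithelium, likewise did not pass, at 55.4, 39.6 and 9.32 CPM in Kit+ K5- and 4.88, 3.30 and 0.191 CPM in Kit- K5+ libraries (adjusted p = 0.137). Fgfr2, the receptor through which mesenchymal FGFs drive bud growth, lay in the other direction, at 87.8, 151 and 240 CPM in Kit+ K5- and 360, 419 and 408 CPM in Kit- K5+ libraries (-1.31, adjusted p = 0.219). None of the 22 measured genes of FGF signalling and ERK feedback was called. The call of Ccnd1 was lost without Kit+ K5- replicate 2 (adjusted p = 0.0550), and that of Cd44 in 5 of 6 fits without 1 library (adjusted p up to 0.110).

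Genes of basal attachment were lower in Kit+ K5- cells. Of the 20 measured basal duct genes, 0 were called higher and 6 lower, 18 had negative differences and the median was -1.28. Lama3 and Lamb3 encode chains of a laminin of epithelial basement membranes. Lama3 (chromosome 18, 12333819 to 12583013) had 5.71, 11.6 and 16.7 CPM in Kit+ K5- libraries, against 205, 83.8 and 67.0 CPM in Kit- K5+ libraries (-3.39 ± 0.47, adjusted p = 0.00704). Lamb3 had 1.80, 6.74 and 2.18 CPM in Kit+ K5- libraries, against 65.9, 17.7 and 13.6 CPM in Kit- K5+ libraries (-3.17 ± 0.68, adjusted p = 0.0281). Both chains were lower in every Kit+ K5- library than in any Kit- K5+ library.

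The hemidesmosome is the junction that ties basal keratin filaments to that laminin. Col17a1, its transmembrane collagen, had 7.61, 37.6 and 40.2 CPM in Kit+ K5- libraries, against 305, 153 and 152 CPM in Kit- K5+ libraries (-2.84 ± 0.61, adjusted p = 0.0362). Dst, which encodes dystonin, the linker to keratin, had 7.50, 4.84 and 6.55 CPM in Kit+ K5- libraries, against 40.9, 18.1 and 28.5 CPM in Kit- K5+ libraries (-2.21 ± 0.41, adjusted p = 0.0179). Neither gene overlapped. The remaining calls were the laminin-binding integrin chains Itgb4 (-1.29 ± 0.32, adjusted p = 0.0457) and Itga6 (-1.24 ± 0.31, adjusted p = 0.0467). For Itgb4 the Kit+ K5- libraries, at 78.3, 127 and 101 CPM, lay under the Kit- K5+ libraries at 335, 243 and 170 CPM. For Itga6 the groups overlapped, at 280, 416 and 390 CPM in Kit+ K5- and 1284, 878 and 408 CPM in Kit- K5+ libraries. The basal duct count of 6 became 3, 1 and 2 without Kit+ K5- replicates 1, 2 and 3, and 1, 3 and 5 without Kit- K5+ replicates 1, 2 and 3. Lama3 was called in all 6 of these fits.

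Desmosomes join epithelial cells to each other, and 2 of the 12 measured genes of desmosomes and stratified epithelium were called, both lower. Dsc3, a desmosomal cadherin of basal layers, had 2.11, 8.95 and 6.85 CPM in Kit+ K5- libraries, against 44.9, 60.0 and 47.1 CPM in Kit- K5+ libraries (-3.09 ± 0.60, adjusted p = 0.0212). Dsc2, a second member of that family, had 32.0, 55.6 and 38.3 CPM in Kit+ K5- libraries, against 135, 139 and 88.6 CPM in Kit- K5+ libraries (-1.52 ± 0.30, adjusted p = 0.0202). All Kit+ K5- values lay below all Kit- K5+ values for both. The calls of both were lost without Kit- K5+ replicate 1 (adjusted p = 0.0685 for Dsc2 and 0.0603 for Dsc3) and without Kit- K5+ replicate 2, that of Dsc2 also without Kit+ K5- replicate 1 and that of Dsc3 also without Kit+ K5- replicate 2 (adjusted p up to 0.0713 and 0.0612). Of 27 measured basement membrane genes, 24 had negative differences (median -0.71), and the 2 called lower were Lama3 and Lamb3.

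Genes of the contractile apparatus also stood lower in Kit+ K5- cells. Of 15 measured myoepithelial and contractile genes 3 were called lower and 0 higher, with a median of -2.06. Acta2, which encodes the actin of smooth muscle, had 5.07, 12.6 and 14.4 CPM in Kit+ K5- libraries, against 704, 124 and 26.4 CPM in Kit- K5+ libraries (-4.74 ± 1.02, adjusted p = 0.0405). Replicate 1 of Kit- K5+ was the high library. Without it the Acta2 difference was -2.82 and did not pass (adjusted p = 0.0680). Synpo2, an actin-bundling protein, was steadier, at 2.85, 4.53 and 3.35 CPM in Kit+ K5- libraries, against 36.5, 29.4 and 23.5 CPM in Kit- K5+ libraries (-3.05 ± 0.49, adjusted p = 0.0130), and was called with each library left out. Cald1, caldesmon, a regulator of actin and myosin, had 106, 118 and 158 CPM in Kit+ K5- libraries, against 419, 418 and 235 CPM in Kit- K5+ libraries (-1.49 ± 0.26, adjusted p = 0.0152). The groups were apart for all 3 genes. Tagln, another smooth muscle protein, missed the threshold at 3.38, 3.37 and 2.91 CPM in Kit+ K5- and 62.4, 12.5 and 4.78 CPM in Kit- K5+ libraries (adjusted p = 0.0539). The count of 3 became 2, 1 and 2 without Kit+ K5- replicates 1, 2 and 3, and 1, 1 and 7 without Kit- K5+ replicates 1, 2 and 3.

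**Figure D3:**
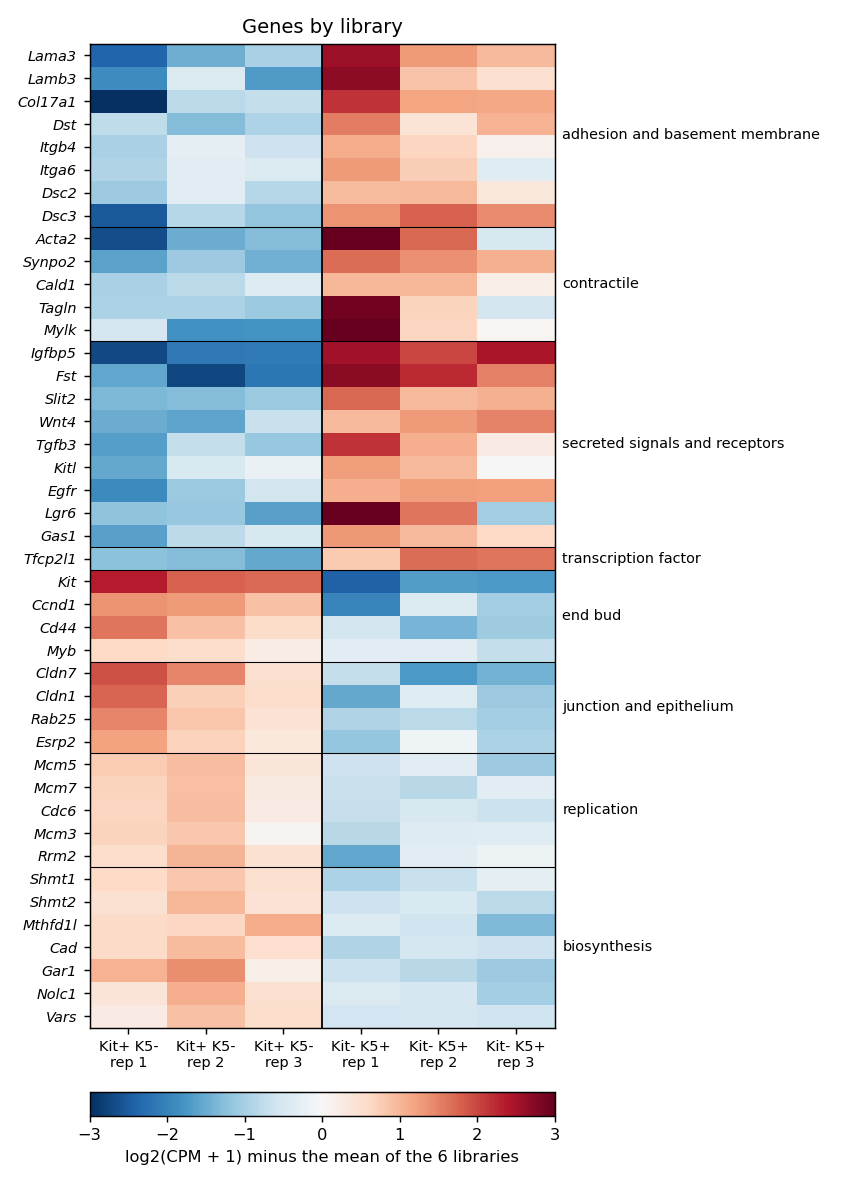
Log2(CPM + 1) minus the mean of the 6 libraries for genes grouped by role, with the 3 Kit+ K5- libraries to the left of the 3 Kit- K5+ libraries. Attachment, contractile and signal genes such as Lama3, Synpo2 and Igfbp5 are below their mean in each Kit+ K5- library, and replication genes such as Mcm5 are above it.

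Several secreted regulators of growth were among the genes furthest below Kit- K5+ levels. Igfbp5 (chromosome 1, 72857932 to 72874884), a binding protein for insulin-like growth factors, had 75.0, 110 and 112 CPM in Kit+ K5- libraries, 468, 295 and 259 CPM in Kit+ K5+ libraries and 2828, 1981 and 2715 CPM in Kit- K5+ libraries. Its Kit+ K5- values lay over 10-fold below every Kit- K5+ value (-4.66 ± 0.56, adjusted p = 0.00449). Fst, which encodes follistatin, an inhibitor of activins and BMPs, had 4.54, 1.47 and 2.62 CPM in Kit+ K5- libraries, against 106, 76.1 and 45.7 CPM in Kit- K5+ libraries (-4.71 ± 0.51, adjusted p = 7.53e-04). H19, the imprinted noncoding RNA on the IGF list, had 195, 289 and 258 CPM in Kit+ K5- libraries, against 907, 614 and 841 CPM in Kit- K5+ libraries (-1.67 ± 0.25, adjusted p = 0.0113). Its level in Kit- K5- libraries was 3483, 2834 and 2335 CPM. Igfbp5 and H19 were the called members of the IGF list (0 higher and 2 lower of 21), and Fst and Tgfb3 those of the BMP and TGF-beta list (0 higher and 2 lower of 26). Igfbp5, Fst and H19 were called with each library left out. The ligand Tgfb3 had 2.43, 5.58 and 3.93 CPM in Kit+ K5- libraries, against 47.6, 22.3 and 11.9 CPM in Kit- K5+ libraries (-2.77 ± 0.52, adjusted p = 0.0179), and its call was lost without Kit+ K5- replicate 2 or Kit- K5+ replicate 1 (adjusted p up to 0.0664).

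Of 22 measured Wnt genes and targets, 0 were called higher and 2 lower. The ligand Wnt4 had 5.71, 5.27 and 10.9 CPM in Kit+ K5- libraries, against 36.0, 44.6 and 52.0 CPM in Kit- K5+ libraries (-2.60 ± 0.42, adjusted p = 0.0130). Lgr6, a receptor for R-spondins, which strengthen Wnt signals, had 3.28, 3.48 and 2.18 CPM in Kit+ K5- libraries, against 106, 29.4 and 3.83 CPM in Kit- K5+ libraries (-3.95 ± 0.84, adjusted p = 0.0306). Kit- K5+ replicate 1 was the high library for Lgr6, and without it the difference was -2.47 (adjusted p = 0.101). The Lgr6 call was also lost without Kit+ K5- replicates 1, 2 or 3 and without Kit- K5+ replicate 2 (adjusted p up to 0.125), and the Wnt4 call without Kit+ K5- replicate 2 (adjusted p = 0.0593).

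Receptors of the ErbB family moved in opposite directions. Egfr had 33.1, 58.7 and 87.1 CPM in Kit+ K5- libraries, against 272, 305 and 298 CPM in Kit- K5+ libraries (-2.29 ± 0.32, adjusted p = 0.00800). Erbb3, which binds neuregulins and signals with other members of the family, had 183, 200 and 173 CPM in Kit+ K5- libraries, against 73.0, 99.3 and 85.7 CPM in Kit- K5+ libraries (1.11 ± 0.23, adjusted p = 0.0245). The groups were apart for both, and these were the 2 calls among 13 measured ErbB genes. Egfr was called with each library left out, whereas the Erbb3 call was lost without Kit+ K5- replicate 2 or Kit- K5+ replicates 1 or 3 (adjusted p up to 0.0980).

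The Kit pathway list had 1 gene higher, Kit itself, and 2 lower of 23 measured. Kitl, which encodes the ligand of Kit, had 69.4, 148 and 177 CPM in Kit+ K5- libraries, against 487, 404 and 203 CPM in Kit- K5+ libraries (-1.48 ± 0.36, adjusted p = 0.0457). The direction of Kit was set by the sort. Kitl had 280, 226 and 297 CPM in Kit+ K5+ libraries and 180, 161 and 106 CPM in Kit- K5- libraries. Pik3r1, the regulatory subunit of PI3-kinase, had 321, 258 and 255 CPM in Kit+ K5- libraries, against 479, 576 and 470 CPM in Kit- K5+ libraries (-0.87 ± 0.18, adjusted p = 0.0249). Neither gene overlapped between the groups. Both calls were lost without Kit+ K5- replicate 2 or Kit- K5+ replicates 1 or 2, that of Kitl also without Kit+ K5- replicate 1 and that of Pik3r1 also without Kit+ K5- replicate 3 (adjusted p up to 0.145 and 0.113).

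Of 12 measured hedgehog genes 0 were called higher and 2 lower, both coreceptors. Gas1 had 5.81, 11.3 and 14.1 CPM in Kit+ K5- libraries, against 50.9, 40.4 and 30.6 CPM in Kit- K5+ libraries (-1.97 ± 0.32, adjusted p = 0.0130). Boc had 28.5, 39.7 and 25.5 CPM in Kit+ K5- libraries, against 81.8, 82.7 and 59.7 CPM in Kit- K5+ libraries (-1.26 ± 0.27, adjusted p = 0.0275). Gas1 was called with each library left out, and Boc only without Kit- K5+ replicate 3. Kit- K5- libraries had 76.9, 61.9 and 74.6 CPM of Gas1 and 76.7, 68.3 and 47.8 CPM of Boc. The Hippo target Cyr61 (-1.17, adjusted p = 0.0457) and the retinoid receptor gene Rxra (-0.77, adjusted p = 0.0405) were the single calls among 13 Hippo target and 15 retinoic acid genes, and they were lost in all 6 and in 5 of 6 fits without 1 library (adjusted p up to 0.179 and 0.157). None of 15 measured Notch genes was called.

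Of 19 fibrillar and associated collagens 0 were called higher and 2 lower, 5 had positive differences and the median was -0.41. The fibril collagen gene Col11a1 had 6.13, 3.16 and 5.97 CPM in Kit+ K5- libraries, against 35.1, 38.6 and 31.8 CPM in Kit- K5+ libraries (-2.79 ± 0.28, adjusted p = 4.91e-04). Timp2, an inhibitor of matrix metalloproteinases, had 19.7, 25.3 and 34.2 CPM in Kit+ K5- libraries, against 142, 113 and 93.0 CPM in Kit- K5+ libraries (-2.14 ± 0.23, adjusted p = 7.53e-04). Slit2, a secreted guidance cue, had 12.999, 13.6 and 15.4 CPM in Kit+ K5- libraries, against 117, 69.5 and 73.3 CPM in Kit- K5+ libraries (-2.63 ± 0.28, adjusted p = 6.83e-04). Timp2 and Slit2 were named after their values were seen. Each of the 3 genes separated the groups and was called with each library left out. Col5a1 was the other called collagen (-1.56 ± 0.26, adjusted p = 0.0149, and 0.0593 without Kit+ K5- replicate 2). Collagens and Timp2 are also made by mesenchymal cells. The 17 mesenchyme genes summed to 1039, 592 and 805 CPM in Kit+ K5- and 961, 1144 and 813 CPM in Kit- K5+ libraries, ranges that overlap, and 1 of them, Postn, was called, lower (-1.42, adjusted p = 0.0421, lost in 4 of 6 fits without 1 library). Kit- K5- libraries, whose mesenchyme genes summed to 12161 CPM or more, had 51.5, 50.8 and 51.9 CPM of Col11a1. They had 236, 262 and 233 CPM of Timp2 and 1078, 820 and 534 CPM of Col5a1. For Col11a1, Timp2 and Col5a1 they lay above every Kit- K5+ library. For Slit2 they had 70.0, 78.1 and 103 CPM, which overlapped the Kit- K5+ values. The part of mesenchymal RNA in these differences was not tested.

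Among duct genes the clearest difference was in a luminal regulator. Tfcp2l1 (chromosome 1, 118627945 to 118685168), a transcription factor of duct and kidney tubule epithelium, had 70.3, 67.2 and 56.8 CPM in Kit+ K5- libraries, against 290, 536 and 511 CPM in Kit- K5+ libraries. It separated the groups widely (-2.78 ± 0.27, adjusted p = 4.03e-04) and was called with each library left out. It was the only call among 17 luminal duct genes, of which 12 had positive and 5 negative differences. The list median was 0.13, and it turned to -0.19 without Kit+ K5- replicate 1 and to -0.32 under scaling to epithelial genes. Krt7, a luminal keratin, had 6.13, 2.42 and 0.728 CPM in Kit+ K5- and 15.9, 15.5 and 17.4 CPM in Kit- K5+ libraries and did not pass (adjusted p = 0.0867).

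Junction and epithelial identity genes were called in the other direction. Of 24 measured general epithelial genes 3 were called higher and 0 lower (median 0.76), and of 20 tight junction genes 2 higher and 0 lower (median 0.81). Cldn7, a tight junction strand protein, had 41.7, 30.6 and 15.0 CPM in Kit+ K5- libraries, against 6.001, 2.47 and 3.25 CPM in Kit- K5+ libraries (2.88 ± 0.56, adjusted p = 0.0193). Cldn1, of the same family, had 150, 72.0 and 63.2 CPM in Kit+ K5- libraries, against 14.5, 33.9 and 20.1 CPM in Kit- K5+ libraries (2.06 ± 0.49, adjusted p = 0.0438). Rab25, a small GTPase of apical recycling, had 42.8, 27.2 and 20.7 CPM in Kit+ K5- libraries, against 7.50, 8.11 and 6.89 CPM in Kit- K5+ libraries (2.01 ± 0.42, adjusted p = 0.0267). Esrp2, a splicing factor of epithelial cells, had 94.8, 66.2 and 50.5 CPM in Kit+ K5- libraries, against 17.6, 36.5 and 20.5 CPM in Kit- K5+ libraries (1.502 ± 0.36, adjusted p = 0.0451). Every Kit+ K5- library exceeded every Kit- K5+ library for these 4 genes. The general epithelial count of 3 became 1, 0 and 4 without Kit+ K5- replicates 1, 2 and 3, 0, 1 and 0 without Kit- K5+ replicates 1, 2 and 3, and 1 when libraries were scaled to these same epithelial genes. The tight junction count of 2 became 1, 0 and 3 without Kit+ K5- replicates 1, 2 and 3, and 0 without any single Kit- K5+ replicate. The summed CPM of the general epithelial list was 3117, 2467 and 1933 in Kit+ K5- and 1956, 1995 and 1796 in Kit- K5+ libraries.

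**Figure D4:**
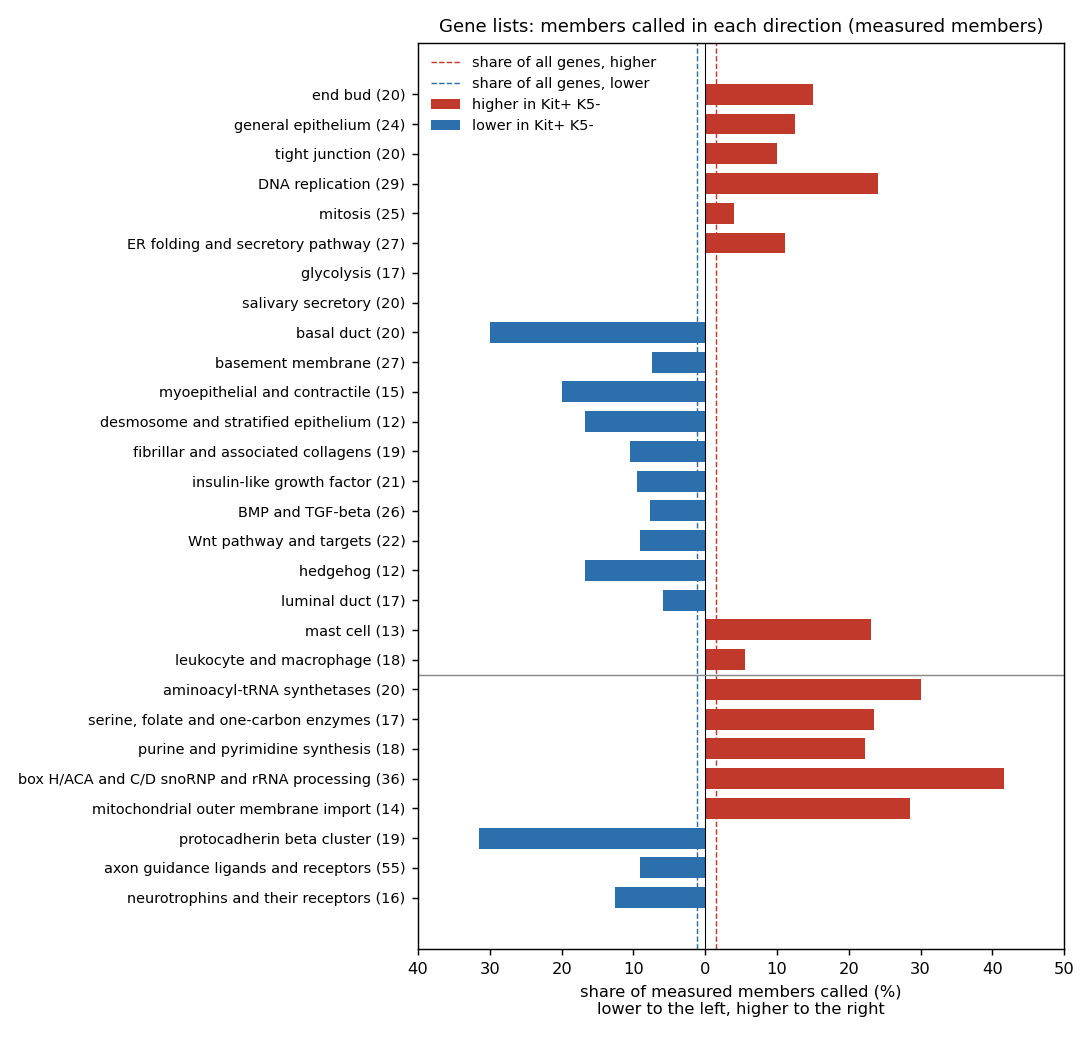
Share of measured members of each gene list called higher in Kit+ K5- (right of 0) or lower in Kit+ K5- (left of 0), in percent, with the number measured in brackets; dashed lines are the shares over all genes tested, 1.48% higher and 1.19% lower. Basal duct, contractile and desmosome lists reach left, and DNA replication, mast cell, end bud and ER folding lists reach right. The end bud list includes Kit, on which the cells were sorted. Lists under the grey line were written after their values had been seen. Among those, rRNA processing genes reach furthest right and protocadherin beta genes furthest left.

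Genes of DNA replication were higher in Kit+ K5- cells. Of 29 measured genes 7 were called higher and 0 lower, 28 had positive differences and the median was 0.67. The MCM proteins form the helicase that opens replication origins, and Cdc6 loads it. Mcm5 had 116, 129 and 86.7 CPM in Kit+ K5- libraries, against 43.8, 52.9 and 31.0 CPM in Kit- K5+ libraries (1.38 ± 0.23, adjusted p = 0.0136). Mcm7 had 104, 122 and 78.6 CPM in Kit+ K5- libraries, against 40.9, 36.4 and 51.7 CPM in Kit- K5+ libraries (1.24 ± 0.21, adjusted p = 0.0149). Cdc6 had 38.7, 47.1 and 29.0 CPM in Kit+ K5- libraries, against 14.5, 17.0 and 15.1 CPM in Kit- K5+ libraries (1.30 ± 0.25, adjusted p = 0.0199). The groups were apart for each, with differences between 2-fold and 3-fold. The other calls were Mcm3 (1.07 ± 0.23, adjusted p = 0.0273), Rrm2, a subunit of ribonucleotide reductase (1.26 ± 0.29, adjusted p = 0.0391), Mcm2 (0.91, adjusted p = 0.0409) and the ligase Lig1 (0.91, adjusted p = 0.0450). Of 25 measured mitosis genes only the kinase gene Aurkb was called (1.02 ± 0.20, adjusted p = 0.0225), with a list median of 0.24 that became -0.10 under scaling to epithelial genes. The count of 7 replication genes became 3, 0 and 7 without Kit+ K5- replicates 1, 2 and 3 and 1, 3 and 6 without Kit- K5+ replicates 1, 2 and 3. It was 0 when libraries were scaled to epithelial genes, though the median of the list stayed positive.

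E2F factors are known regulators of replication genes, and the promoters of 4 called genes are shown to set the letters of E2F motifs beside them. Sequences are from RefSeq (GRCm38.p6), 250 bases before to 50 after the start site, 5′ to 3′ along the gene, with matches to TTTGGCGC, TTTCGCGC or TTTCCCGC on either strand in capitals. The matches on the 2 strands overlap in Mcm5, and for Mcm7 the promoter shown is 1 of its 2.
Mcm5 (chr8:75109259-75109558, plus strand): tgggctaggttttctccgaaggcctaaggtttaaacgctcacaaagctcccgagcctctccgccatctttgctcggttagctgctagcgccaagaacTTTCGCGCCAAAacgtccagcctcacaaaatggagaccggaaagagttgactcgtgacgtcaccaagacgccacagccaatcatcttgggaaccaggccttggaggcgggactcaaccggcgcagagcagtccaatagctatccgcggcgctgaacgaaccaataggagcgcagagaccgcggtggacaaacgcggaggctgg
Mcm7 (chr5:138171834-138172133, minus strand): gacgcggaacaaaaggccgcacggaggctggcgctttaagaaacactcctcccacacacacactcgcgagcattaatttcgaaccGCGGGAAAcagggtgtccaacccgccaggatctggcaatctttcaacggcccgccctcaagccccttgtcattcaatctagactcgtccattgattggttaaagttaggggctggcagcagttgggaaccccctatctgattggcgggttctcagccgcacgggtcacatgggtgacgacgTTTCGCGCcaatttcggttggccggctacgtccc
Cdc6 (chr11:98907901-98908200, plus strand): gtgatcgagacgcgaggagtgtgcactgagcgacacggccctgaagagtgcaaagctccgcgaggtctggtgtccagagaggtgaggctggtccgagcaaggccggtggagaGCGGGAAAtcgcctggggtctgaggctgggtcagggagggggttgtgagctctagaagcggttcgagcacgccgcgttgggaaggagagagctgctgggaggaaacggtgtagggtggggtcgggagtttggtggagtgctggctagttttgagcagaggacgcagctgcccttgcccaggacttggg
Mcm3 (chr1:20820263-20820562, minus strand): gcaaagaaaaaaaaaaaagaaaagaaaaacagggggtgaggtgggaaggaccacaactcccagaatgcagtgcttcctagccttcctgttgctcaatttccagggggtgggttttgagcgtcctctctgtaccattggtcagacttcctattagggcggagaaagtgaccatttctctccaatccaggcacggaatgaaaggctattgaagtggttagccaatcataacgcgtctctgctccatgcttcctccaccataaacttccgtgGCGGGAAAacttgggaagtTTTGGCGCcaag
Any of the 3 motifs was found in 1.84% of 32851 RefSeq promoters of this length, and in a promoter of 412 of 11515 tested genes that had one (3.58%). Of the replication list 22 of 29 genes were matched to a promoter, and 11 of them (50.0%) held a motif, 5 of these among the 7 called genes. Mcm2 and Rrm2 held none in this window. The list is known for genes that E2F factors regulate, so these shares describe the list and not the comparison. A match is a stretch of letters and not a measured binding site.

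A few genes of the endoplasmic reticulum (ER) were called in the same direction. Of 27 measured genes of ER folding and the secretory pathway, 3 were called higher and 0 lower (median 0.45). Creld2, a disulphide isomerase-like ER protein, had 45.4, 53.4 and 37.1 CPM in Kit+ K5- libraries, against 19.3, 18.3 and 19.9 CPM in Kit- K5+ libraries (1.24 ± 0.23, adjusted p = 0.0179). Hspa5, the main ER chaperone, had 1522, 1755 and 1201 CPM in Kit+ K5- libraries, against 552, 999 and 743 CPM in Kit- K5+ libraries (0.96 ± 0.24, adjusted p = 0.0469). Herpud1, a component of ER protein degradation, had 64.5, 51.7 and 35.8 CPM in Kit+ K5- libraries, against 22.5, 9.34 and 6.89 CPM in Kit- K5+ libraries (1.96 ± 0.47, adjusted p = 0.0433). No library of one group overlapped the other for these genes. The count of 3 became 1, 0 and 4 without Kit+ K5- replicates 1, 2 and 3, 1, 1 and 1 without Kit- K5+ replicates 1, 2 and 3, and 0 under scaling to epithelial genes. The ER stress element, CCAAT and CCACG with 9 bases of any kind between them, through which unfolded protein sensors are known to act, is shown in the promoters of both of these genes that hold it, with the 19-base match on either strand in capitals.
Hspa5 (chr2:34771840-34772139, plus strand): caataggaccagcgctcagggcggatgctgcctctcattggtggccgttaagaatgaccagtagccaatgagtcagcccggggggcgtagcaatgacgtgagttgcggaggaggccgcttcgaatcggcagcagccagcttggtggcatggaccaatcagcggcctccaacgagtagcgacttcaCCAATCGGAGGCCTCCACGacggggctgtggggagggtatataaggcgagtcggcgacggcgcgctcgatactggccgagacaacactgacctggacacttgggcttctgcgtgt
Creld2 (chr15:88819396-88819695, plus strand): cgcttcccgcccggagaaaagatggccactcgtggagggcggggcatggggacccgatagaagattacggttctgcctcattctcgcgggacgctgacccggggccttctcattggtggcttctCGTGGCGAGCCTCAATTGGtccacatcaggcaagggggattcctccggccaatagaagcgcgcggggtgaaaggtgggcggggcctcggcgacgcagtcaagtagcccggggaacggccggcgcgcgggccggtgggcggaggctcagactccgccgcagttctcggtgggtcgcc
This element was found in 0.119% of all 32851 promoters and for 0.148% of tested genes with a promoter. On the ER list 7 of 23 matched genes (30.4%) held it, 2 of them called, and Herpud1 had no match in this window. The list is known for genes of this response, so the share describes the list and not the comparison.

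Other biosynthetic genes were looked at in lists written after their values had been seen, and only their counts are given. Of 36 measured genes of small nucleolar ribonucleoproteins and rRNA processing, 15 were called higher and 0 lower (median 0.84). The counts were 6 of 20 aminoacyl-tRNA synthetases, 4 of 17 serine, folate and one-carbon enzymes, 4 of 18 purine and pyrimidine synthesis genes and 4 of 14 mitochondrial outer membrane import genes, each with 0 lower. Gar1, a protein of the particles that modify rRNA, had 95.3, 122 and 51.8 CPM in Kit+ K5- libraries, against 28.9, 25.4 and 21.0 CPM in Kit- K5+ libraries (1.84 ± 0.33, adjusted p = 0.0173). Cad, the enzyme that starts pyrimidine synthesis, had 169, 217 and 161 CPM in Kit+ K5- libraries, against 59.4, 78.2 and 72.9 CPM in Kit- K5+ libraries (1.38 ± 0.22, adjusted p = 0.0130). Shmt2, which feeds one-carbon units from serine in mitochondria, had 160, 234 and 157 CPM in Kit+ K5- libraries, against 74.9, 85.2 and 66.2 CPM in Kit- K5+ libraries (1.28 ± 0.22, adjusted p = 0.0152). The groups did not overlap for any of these 3 genes, whose calls were lost without Kit+ K5- replicate 2 or Kit- K5+ replicate 1 (adjusted p up to 0.0667). The rRNA processing count became 10, 0 and 12 without Kit+ K5- replicates 1, 2 and 3 and 1, 5 and 8 without Kit- K5+ replicates 1, 2 and 3. The synthetase count of 6 became 3, 0 and 5 without Kit+ K5- replicates 1, 2 and 3 and 1, 1 and 0 without Kit- K5+ replicates 1, 2 and 3. In the same order the one-carbon count of 4 became 3, 1 and 3 and then 1, 3 and 4, the purine and pyrimidine count of 4 became 3, 0 and 4 and then 0, 2 and 2, and the import count of 4 became 2, 0 and 3 and then 0, 0 and 1. All 5 lists had 0 calls under scaling to epithelial genes, with medians that stayed positive (0.14 to 0.51).

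None of 17 measured glycolysis genes was called, although all 17 had positive differences (median 0.77). Of them 9 were higher without overlap, against 11.2% of all genes tested. DESeq2 called 4 of the glycolysis genes higher, and edgeR without a filter on low counts 7. Ldha, which makes lactate, had 617, 813 and 724 CPM in Kit+ K5- and 351, 455 and 267 CPM in Kit- K5+ libraries (1.01 ± 0.26, adjusted p = 0.0549).

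Secretory product genes did not pass in either direction (0 of 20 measured). Bpifa2, a protein of neonatal saliva, had 4432, 182 and 1.02 CPM in Kit+ K5- libraries and 68.0, 0.687 and 0.956 CPM in Kit- K5+ libraries, a spread wider than the difference (6.03 ± 3.30, adjusted p = 0.375). Replicate 1 was the high library in both groups. Smr3a, another salivary product, lay in the other direction at 1.06, 0.527 and 0.874 CPM in Kit+ K5- and 23.8, 8.24 and 2.49 CPM in Kit- K5+ libraries (-3.80, adjusted p = 0.0549). The list median was 1.15, and -0.30 without Kit+ K5- replicate 1.

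Tuft cell genes included a regulator shared with taste and chemosensory cells. Of 13 measured genes 2 were called higher and 1 lower. Pou2f3, the transcription factor that tuft cells require, had 47.1, 56.1 and 30.4 CPM in Kit+ K5- libraries, 202, 109 and 75.1 CPM in Kit+ K5+ libraries and 10.002, 10.4 and 1.53 CPM in Kit- K5+ libraries (2.58 ± 0.60, adjusted p = 0.0437). Plcb2, a phospholipase of taste signalling, was higher (3.61, adjusted p = 0.0468), with 40.7 CPM in Kit+ K5- replicate 1 and 6.53 and 6.85 CPM in the other 2, against 0.625, 2.61 and 1.15 CPM in Kit- K5+ libraries. Dclk1, a kinase used as a tuft cell marker, was lower (-2.57, adjusted p = 0.0457). Of the 13 genes 10 had positive and 3 negative differences, with a median of 0.77 that was 0.41 without Kit+ K5- replicate 1 and 0.37 under scaling to epithelial genes. The calls of Pou2f3 and Plcb2 were lost in 5 of 6 fits without 1 library and that of Dclk1 in all 6 (adjusted p up to 0.154, 0.164 and 0.128).

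Mast cell transcripts were present in the Kit+ K5- libraries. The 13 measured mast cell genes summed to 5493, 284 and 200 CPM in Kit+ K5- libraries, 84.2, 41.9 and 55.0 CPM in Kit+ K5+ libraries and 28.3, 32.7 and 40.7 CPM in Kit- K5+ libraries. Kit+ K5- replicate 1 thus stood apart, and the other Kit+ K5- libraries were also above every Kit- K5+ library. All 13 had positive differences, and 3 were called. Without overlap 10 lay higher, against 11.2% of all genes tested. Cma1, a mast cell chymase, had 977, 40.4 and 12.96 CPM in Kit+ K5- libraries, against 0.625, 0 and 0 CPM in Kit- K5+ libraries (10.40 ± 2.24, adjusted p = 0.0450). Gata2, a transcription factor of mast cells and blood progenitors, had 224, 21.0 and 11.4 CPM in Kit+ K5- libraries and a single count in all Kit- K5+ libraries together, a ratio of 1905 with a counting interval at 95% of 342 to 75271 (adjusted p = 0.0188). Gzmb, a protease of granules, was the other call, at 30.2, 12.2 and 11.4 CPM in Kit+ K5- and 0.375, 0 and 0.765 CPM in Kit- K5+ libraries (adjusted p = 0.0459). Tpsab1, a tryptase with a close paralog that can share its reads, had 0 counts in every Kit- K5+ library and was at least 1045-fold higher in Kit+ K5- libraries against a floor of 3 counts over the group, without passing the test (adjusted p = 0.0847). Without Kit+ K5- replicate 1 the Cma1 difference was 6.78 (adjusted p = 0.0468) and the fitted Gata2 difference was 8.01 (adjusted p = 0.0156), against 10.42 with all libraries, while the Gzmb call was lost in each of the 6 fits (adjusted p up to 0.143). Both other calls were lost when any of the Kit- K5+ replicates was left out, and that of Cma1 also without Kit+ K5- replicate 2 (adjusted p up to 0.0916 for Gata2 and 0.165 for Cma1).

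The 18 measured leukocyte genes summed to 660, 127 and 122 CPM in Kit+ K5- and 80.9, 79.7 and 69.3 CPM in Kit- K5+ libraries. Of these 1 was called higher and 0 lower, and the median was 2.68, or 1.02 without Kit+ K5- replicate 1. The called gene was Coro1a, an actin-binding protein of blood cells (adjusted p = 0.0251), and its call was lost without Kit+ K5- replicate 2 or any single Kit- K5+ replicate (adjusted p up to 0.103). Ptprc, the common leukocyte antigen, had 53.1, 7.58 and 13.98 CPM in Kit+ K5- and 8.13, 0.687 and 13.96 CPM in Kit- K5+ libraries, which overlapped. Several of the genes furthest above Kit- K5+ levels are known from blood cells. Srgn, the proteoglycan of granules, had 219, 18.6 and 24.2 CPM in Kit+ K5- libraries, against 2.13, 0.824 and 1.15 CPM in Kit- K5+ libraries (5.96, adjusted p = 0.0226). Ikzf1, a lymphoid transcription factor, had 94.1, 19.3 and 15.7 CPM in Kit+ K5- libraries, against 2.63, 4.53 and 6.12 CPM in Kit- K5+ libraries (3.30, adjusted p = 0.0256). Both calls were lost when any of the Kit- K5+ replicates was left out, and that of Ikzf1 also without Kit+ K5- replicate 1 (adjusted p up to 0.0880 and 0.104). Of all 252 genes called higher, 26 had more than 2-fold the level of either other replicate in Kit+ K5- replicate 1. The same count was not taken over all genes tested or for the other replicates, so it has no background to be read against. The part of mast cell RNA in the Kit level itself was not tested. Kit stayed at 300 and 283 CPM in Kit+ K5- replicates 2 and 3, whose mast cell sums were 284 and 200 CPM, and at 335, 303 and 319 CPM in Kit+ K5+ libraries, whose sums were 84.2 CPM or less. Without Kit+ K5- replicate 1 the Kit difference was 3.72 (adjusted p = 4.00e-05).

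**Figure D5:**
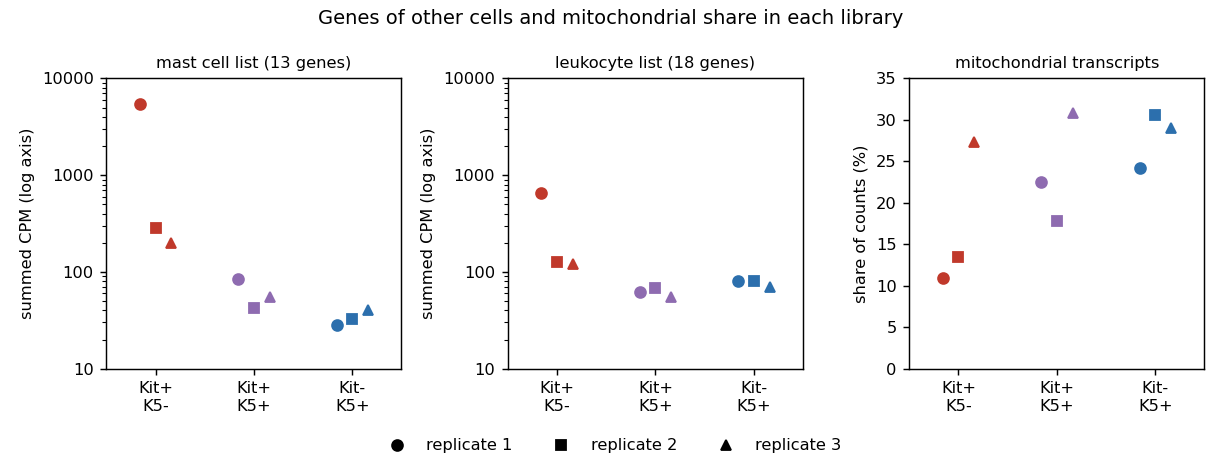
Summed CPM of marker lists of other cell types on a log axis, and the mitochondrial share of counts in percent, in each library of Kit+ K5-, Kit+ K5+ and Kit- K5+ cells; shapes are replicates. Mast cell genes reach 5493 CPM in Kit+ K5- replicate 1 and stay at 40.7 CPM or less in Kit- K5+ libraries.

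With each library left out in turn, 24 genes were called in all 6 fits, 7 higher and 17 lower. The higher genes besides Kit were Acot7, Ddx39, Eif4ebp2, Glrx, Mthfd1l and Tbrg4. Eif4ebp2, a repressor of cap-dependent translation, had 296, 298 and 260 CPM in Kit+ K5- libraries, against 85.3, 118 and 112 CPM in Kit- K5+ libraries (1.44, adjusted p = 0.0108). Glrx, a glutaredoxin, had 44.2, 42.1 and 37.7 CPM in Kit+ K5- libraries, against 10.1, 8.93 and 12.4 CPM in Kit- K5+ libraries (1.98, adjusted p = 0.0130). Acot7, which cleaves acyl-CoA, had 46.9, 37.9 and 24.8 CPM in Kit+ K5- libraries, against 6.75, 7.83 and 5.36 CPM in Kit- K5+ libraries (2.45 ± 0.38, adjusted p = 0.0113). None of these is a mast cell list gene, but the part of mast cell RNA in their levels was not tested. Like all 252 genes called higher, they did not overlap between the groups. The lower genes not yet described were Bnc2, Calcoco1, Lpar4, Nrk, Plekhh2 and Zim1. Zim1, an imprinted zinc finger gene, had 11.5, 10.1 and 13.4 CPM in Kit+ K5- libraries, against 40.5, 59.6 and 56.1 CPM in Kit- K5+ libraries (-2.16, adjusted p = 0.00175). Bnc2, a zinc finger gene, had 5.07, 1.16 and 5.68 CPM in Kit+ K5- libraries, against 28.5, 22.1 and 48.2 CPM in Kit- K5+ libraries (-3.06, adjusted p = 0.0113). Kit- K5- libraries, whose mesenchyme genes summed to 12161 CPM or more, had 83.4, 93.6 and 128 CPM of Bnc2 and 456, 374 and 374 CPM of Zim1. They also lay above every Kit- K5+ library for Calcoco1, Lpar4, Nrk and Plekhh2. The part of mesenchymal RNA in the lower genes was not tested. These genes were singled out after their values were seen.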

How the data were processed

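Total RNA of sorted epithelial cells was sequenced as single reads of 50 nt. The authors deposited a raw read count for every gene symbol, in whole numbers. The submitters' processing notes name STAR 2.4.2a, featureCounts 1.4.6-p3, Picard 1.129, FastQC and GRCm38.p3. Not given in the sources used here are the annotation release, the use of strand and the handling of duplicates. The series matrix and the single tables differed in 0 cells, and no library pair of a group differed by as little as sampling noise (chi-square per degree of freedom 25.7 to 89.5).

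Of 43280 symbols, 17030 passed edgeR's filterByExpr. All 12 libraries entered 1 quasi-likelihood fit (edgeR 4.0.16, R 4.3.3) with TMM factors and 1 coefficient per population, which left 8 residual degrees of freedom. The contrast was Kit+ K5- minus Kit- K5+, with Benjamini-Hochberg adjustment over all genes tested and a threshold of 0.05. SE are those implied by the F statistic. The fit was tested on simulated counts. Positions were taken for 39379 symbols from GENCODE vM21 on GRCm38. Intervals of count ratios and floors cover counting error only.

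The libraries, gene lists and rules were chosen with earlier results of these data known, and 8 further lists were written after the values had been seen. Of 686 listed genes 618 were tested and 56 called. Named were the genes of the sort, Krt14 and Myb, the 14 called genes furthest from 0 in each direction (mean of 10 CPM or more in the higher group, no overlap of libraries, predicted genes left out) and up to 4 called members per list and direction, or the 2 most abundant where none was called. Not all are written out, and further called members and Trp63, Fgfr2, Spdef, Tagln, Krt7, Ptprc and Smr3a were named after their values were seen. Alternatives used DESeq2 1.42.0 and limma 3.58.1 (voom). Some genes are not reported here.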

Additional observations from a re-analysis of the deposited data

How the results depend on the processing

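The comparison called 455 genes, 252 higher and 203 lower in Kit+ K5- cells, 56 of them on the gene lists, and 0 of these calls changed direction under any alternative. With each library left out in turn, calls numbered 40 to 566, higher 18 to 360, lower 22 to 206 and listed 13 to 60. DESeq2 called 1322 (671 higher, 651 lower, 124 listed), limma-voom 273 (138 and 135), and edgeR without a filter on low counts 1372 (819 and 553, 173 listed). With only the 6 compared libraries in the fit there were 56 (25 and 31, 17 listed). Scaling to general epithelial genes gave 136 (19 and 117, 28 listed), and Cdh1 changed sign under it, to -0.14. Without library numbers 1 to 4 there were 109 (55 and 54, 22 listed) and Krt14 changed sign, to 0.0077. Without numbers 9 to 12 there were 145 (60 and 85, 23 listed). Without numbers 5 to 8 there was 1 call, Kit, higher, with 0 lower and 1 listed. The cause of these shifts was not tested. Other scaling factors, mitochondrial transcripts left out, a stricter filter and thinning to the smallest library kept the number of calls within 416 to 617.

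Each of these runs of library numbers contains 1 library per population, but the labels do not say that they share a sort. For that reason the runs were not taken as pairs. Deviations of Kit+ K5- and Kit- K5+ libraries from their group means correlated at 0.197, 0.365 and 0.0928 within the runs. Between libraries of different runs the correlations were -0.0157, -0.218, -0.394, 0.120, 0.197 and -0.344. With a replicate block on the run, 1331 genes were called (773 higher, 558 lower, 137 listed), 7 of them glycolysis genes, against 0 without it. Kit+ K5- replicate 3 correlated more with Kit- K5+ replicate 2 (0.120) than with its own run.

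Depth limits genes of few counts, such as mast cell genes in Kit- K5+ libraries, where a ratio rests on 1 count or a floor of 3. The spread is wide, with a common biological coefficient of variation of 0.437, and 3161 genes had an unadjusted p under 0.05.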

Other observations

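Except for the Schwann and glial list, the lists in this section were written after their values had been seen, so their counts are descriptions. The protocadherin beta genes are a cluster of adhesion genes that neurons use to tell cells apart. Of 22 genes 19 were measured, all 19 had negative differences (median -1.81), 9 were lower in Kit+ K5- cells without overlap, and 6 were called lower: Pcdhb7, Pcdhb13, Pcdhb16, Pcdhb17, Pcdhb19 and Pcdhb22. Over all genes tested 9.28% lay lower without overlap. The protocadherin beta genes are related copies, and how reads that match several of them were counted is not known here. The count became 1, 0 and 5 without Kit+ K5- replicates 1, 2 and 3 and 0, 3 and 2 without Kit- K5+ replicates 1, 2 and 3.

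Of 55 axon guidance genes 0 were called higher and 5 lower (Slit2, Ntng1, Sema3c, Epha4 and Epha1), 17 had positive and 38 negative differences, and the median was -0.29. The count of 5 became 3, 1 and 5 without Kit+ K5- replicates 1, 2 and 3 and 2, 3 and 3 without Kit- K5+ replicates 1, 2 and 3. The call of Epha1 was lost in all 6 of these fits (adjusted p up to 0.138). Ntrk2, a receptor tyrosine kinase of neurons, had 12.6, 6.003 and 11.5 CPM in Kit+ K5- libraries, against 61.8, 29.7 and 20.1 CPM in Kit- K5+ libraries (-1.90, adjusted p = 0.0234). The groups did not overlap, and the call was lost without Kit+ K5- replicate 2 or Kit- K5+ replicate 1 (adjusted p up to 0.103). Schwann and glial genes summed to 419, 474 and 485 CPM in Kit+ K5- and 384, 306 and 240 CPM in Kit- K5+ libraries, which lies in the other direction. Of 11 genes 2 were called, Erbb3 and Fabp7, both higher. Erbb3, described above with the ErbB genes, made up 183, 200 and 173 CPM of the Kit+ K5- sums. In the Kit- K5+ sums it made up 73.0, 99.3 and 85.7 CPM. Sox10 is on both this list and the end bud list. Fabp7, a glial fatty acid-binding protein, had 63.9, 22.2 and 15.1 CPM in Kit+ K5- libraries, against 2.75, 4.67 and 2.68 CPM in Kit- K5+ libraries (3.32 ± 0.55, adjusted p = 0.0145, and 0.0586 without Kit- K5+ replicate 1).

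Cpe, a carboxypeptidase of peptide-secreting cells, had 3.70, 2.53 and 2.33 CPM in Kit+ K5- libraries, against 116, 38.9 and 17.2 CPM in Kit- K5+ libraries (-4.32, adjusted p = 0.0108, and 0.0583 without Kit+ K5- replicate 2). Fmod, a collagen-binding proteoglycan, had 1.27, 4.53 and 3.06 CPM in Kit+ K5- libraries, against 64.3, 24.3 and 12.2 CPM in Kit- K5+ libraries (-3.51, adjusted p = 0.0150, and 0.0586 without Kit- K5+ replicate 1). Kcnn4, a calcium-activated potassium channel of secretory and blood cells, had 146, 92.1 and 37.1 CPM in Kit+ K5- libraries, against 13.8, 3.71 and 8.03 CPM in Kit- K5+ libraries (3.43 ± 0.71, adjusted p = 0.0319), a call lost in 5 of 6 fits without 1 library (adjusted p up to 0.104).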
